A study of Mus musculus with 6 samples.

Results

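The genes described here encode the Notch receptors *Notch1*, *Notch2* and *Notch3*, the ligands *Jag1*, *Jag2* and *Dll1*, and the Hes/Hey transcription factors *Hes1*, *Hey1*, *Hey2* and *Heyl*. They were chosen by symbol as the core of the Notch pathway, and 8 of the 10 have a row among the 24016 mouse genes with values. *Hey1* and *Hey2* were not analysed here. The cells were MC3T3-E1 Subclone 4, a single clonal preosteoblast line of wild-type genotype that comes from mouse calvaria. All cells were differentiated for 6 days with β-glycerophosphate at 10 mM and 50 μg/ml of ascorbic acid. They then received vehicle (n = 3 libraries) or corticosterone at 100 nM (n = 3 libraries) for 24 h. Corticosterone is the chief natural glucocorticoid in mice, and the labels list 10 nM calcitriol for every sample.

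Notch receptors are cell surface proteins that are activated by Jagged and Delta-like ligands on a neighbouring cell. Ligand binding lets an ADAM protease and then γ-secretase cut the receptor, and the freed intracellular domain enters the nucleus, where it joins RBPJ and a Mastermind protein to turn on genes such as *Hes1* and the *Hey* genes. The Hes and Hey proteins are repressors. In the osteoblast lineage, Notch signalling is known to restrain differentiation, and variants of the human *NOTCH2* and *JAG1* genes underlie inherited disorders with skeletal signs.

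The deposited value of a gene is its read count divided by a single scaling factor for the library, and is called a normalized count here. The corticosterone libraries were shallower, with 16020401 to 18992332 reads on genes against 19076586 to 25638645 with vehicle. A count of 3 reads, the floor used here, equals 2.32 to 3.84 normalized counts depending on the library, which covers counting error only. No pair of libraries was a duplicate, as the chi-square per degree of freedom between libraries of the same treatment was at least 3.38. The glucocorticoid-induced genes *Tsc22d3* (log2 fold change 1.49, SE 0.07) and *Fkbp5* (log2 fold change 2.46, SE 0.06) were higher in all 3 corticosterone libraries. Osteoblast identity was checked with 9 markers, all of which have a row. Of these, 7 were lower after corticosterone, including *Runx2* (log2 fold change -1.16), *Sp7* (-1.34) and *Bglap* (-1.87), and none was higher. *Dmp1* (0.05) and *Phex* (1.02, from 1 to 9 reads) did not pass. The summed level of the 9 was 1258800 to 1303000 with vehicle and 1063600 to 1117600 with corticosterone, nearly all of it from *Col1a1* and *Col1a2*.

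The receptors carry most of the reads of the pathway core, and their promoters are shown to place them in the genome. Each sequence is the 250 bases before a RefSeq transcription start of GRCm38.p6, 5′ to 3′ along the gene, in lower case with any motif match in capitals. *Notch1* is at chr2:26503823-26504072 on the minus strand, *Notch2* at chr3:98013288-98013537 on the plus strand, *Notch3* at chr17:32166891-32167140 on the minus strand and *Notch4*, the remaining receptor of the family, at chr17:34564045-34564294 on the plus strand. The RefSeq start of *Notch1* lies inside its GENCODE gene, and 2, 11, 0 and 27 bases of these windows, in the same order, fall in annotated exons of the gene itself.
Notch1: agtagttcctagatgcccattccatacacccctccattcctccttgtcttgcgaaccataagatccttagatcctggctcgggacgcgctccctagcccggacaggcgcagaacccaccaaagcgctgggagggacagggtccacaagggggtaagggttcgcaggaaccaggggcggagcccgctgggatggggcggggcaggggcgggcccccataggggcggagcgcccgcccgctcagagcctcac
Notch2: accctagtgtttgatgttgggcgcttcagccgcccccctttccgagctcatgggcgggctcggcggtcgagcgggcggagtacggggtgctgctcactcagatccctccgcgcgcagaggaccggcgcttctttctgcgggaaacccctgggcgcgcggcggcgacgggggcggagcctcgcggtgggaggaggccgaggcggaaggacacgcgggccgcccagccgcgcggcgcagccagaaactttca
Notch3: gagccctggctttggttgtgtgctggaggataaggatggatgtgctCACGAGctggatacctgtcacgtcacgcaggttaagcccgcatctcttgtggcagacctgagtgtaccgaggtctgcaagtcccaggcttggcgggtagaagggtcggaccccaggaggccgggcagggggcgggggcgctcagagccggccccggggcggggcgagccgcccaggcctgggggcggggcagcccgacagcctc
Notch4: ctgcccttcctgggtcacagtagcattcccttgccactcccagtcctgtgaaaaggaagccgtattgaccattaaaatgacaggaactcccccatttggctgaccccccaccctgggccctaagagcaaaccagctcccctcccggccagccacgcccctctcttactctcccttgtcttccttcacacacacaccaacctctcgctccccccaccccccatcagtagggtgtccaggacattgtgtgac

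The *Notch1*, *Notch2* and *Notch3* windows are rich in G and C, with 66.0%, 72.0% and 68.8%, against a median of 52.4% over 32851 mouse promoters of the same length. The *Notch4* window has 58.4% and holds 4 CpG dinucleotides, where *Notch1* has 16, *Notch2* has 34, *Notch3* has 17 and the median promoter has 6. On either strand, 4 motifs were searched that do not overlap one another in these windows: TGGGAA, the core bound by RBPJ; CACGTG and CACGAG, bound by Hes and Hey proteins; and AGAACA, a hexamer bound by the glucocorticoid receptor. Over all promoters they are held by 21.6%, 6.02%, 5.37% and 16.1%, respectively. The single match in the printed windows is CACGAG at position -204 of *Notch3*, counted from the start site. Of the 10 genes, 7 have a promoter entry, with 8 start sites in all. Among these, *Dll1* holds AGAACA on the antisense strand at -44 of a start and *Hey2* holds TGGGAA on the antisense strand at -207, while the *Jag1* and *Jag2* windows hold none of the 4. These matches are of letters only and say nothing about binding.

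In the comparison of corticosterone with vehicle, which asks how the osteoblast transcriptome responded to the glucocorticoid, *Notch1*, *Notch2* and *Hes1* fell and *Jag1* rose, while *Notch3*, *Jag2*, *Dll1* and *Heyl* did not pass the test. A gene passed when limma's Benjamini-Hochberg adjusted p over all 24016 genes was under 0.05. By this rule 1 of the 8 genes was higher, where 8.49% of all genes were, and 3 were lower, where 8.20% of all genes were. These shares were larger among genes with a mean of at least 10, where 2190 of 13880 were higher and 2125 lower. None of the 4 that passed also had an absolute log2 fold change over 1, a stricter rule that 2.78% of all genes met. The 3 corticosterone libraries lay wholly above or below the 3 vehicle libraries for 5 of the 8 genes, which was so for 29.6% of all genes. The median log2 fold change of the 8 was -0.46, against -0.01 over all genes. The calls varied with limma's estimate of how variance falls with expression. Without that trend none of the 8 passed, with adjusted p of 0.076 for *Notch1*, 0.17 for *Notch2*, 0.22 for *Jag1* and 0.11 for *Hes1*. At an unadjusted p under 0.05, 1 was still higher and 4 were lower. With genes of a mean of at least 10 only, and still without the trend, *Notch1*, *Notch2* and *Hes1* passed and *Jag1* did not. Their adjusted p was 0.018, 0.044, 0.031 and 0.078, in that order, and this alternative was chosen after seeing the data. On the recovered reads, edgeR called 1 higher and 3 lower and DESeq2 called 1 higher and 2 lower. In bulk RNA, fewer expressing cells and less RNA per cell cannot be told apart.

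**Figure D1:**
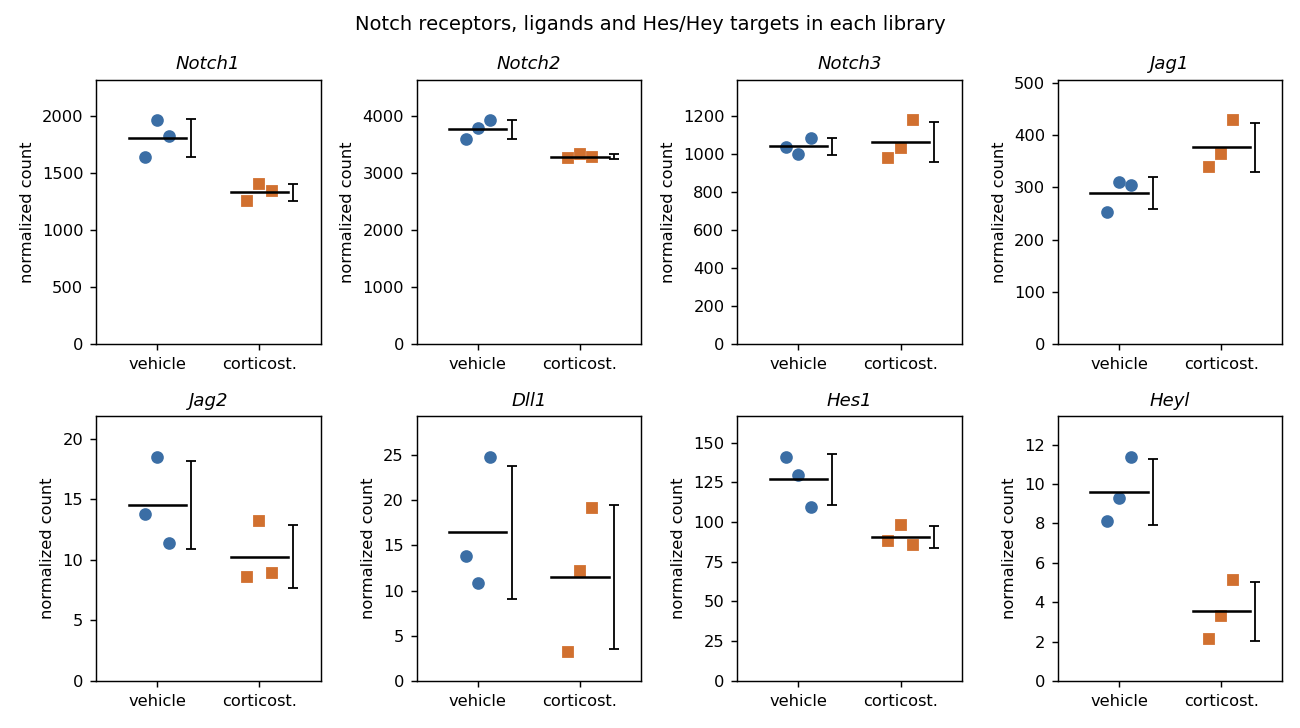
Normalized counts (y axis, starting at 0) of the 8 Notch genes in each library, with vehicle as circles and corticosterone as squares. Horizontal lines are group means and the vertical bars beside them the mean ± SD (n = 3). The groups are apart for *Notch1*, *Notch2*, *Jag1*, *Hes1* and *Heyl* and overlap for *Notch3*, *Jag2* and *Dll1*.

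Among the receptors, *Notch1* (ENSMUSG00000026923, GRCm38 chromosome 2, 26457903 to 26516663, minus strand) changed by the most of the 3 chosen. Its normalized counts were 1636, 1960 and 1817 with vehicle and 1248, 1398 and 1337 with corticosterone. All corticosterone libraries were below the lowest vehicle library. The mean went from 1804 ± 163 to 1328 ± 75.4 (SD, n = 3), a change of -26.4% (log2 fold change -0.44, SE 0.06, 95% confidence interval -0.58 to -0.30, limma adjusted p = 9.8e-05). It rests on 1045 to 2540 reads per library, and the call remained when any single library was left out, with a highest adjusted p of 0.019. Genes on the opposite strand overlap 9.76% of the exon bases of *Notch1*, and the strand setting of the counting is not given in the sources used here, so their reads cannot be told apart from its own.

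*Notch2* (ENSMUSG00000027878, chromosome 3, 98013527 to 98150361, plus strand) is the receptor with the most reads. It was at 3583, 3773 and 3920 normalized counts with vehicle and at 3249, 3333 and 3266 with corticosterone. The groups did not overlap, and the corticosterone libraries were close together. The mean fell from 3759 ± 169 to 3283 ± 44.4 (SD, n = 3), which is -12.7% (log2 fold change -0.19, SE 0.04, 95% confidence interval -0.29 to -0.10, limma adjusted p = 0.0048). This was the smallest of the 4 changes that passed. Without vehicle replicate 3, the highest of its 6 values, the adjusted p was 0.054. A gene on the same strand, *Gm42820*, overlaps 5.02% of its exon bases.

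*Notch3* (ENSMUSG00000038146, chromosome 17, 32120820 to 32166852, minus strand) was at 1037, 1001 and 1088 normalized counts with vehicle and at 979.6, 1036 and 1181 with corticosterone. The corticosterone libraries held both the lowest and the highest value, so the groups overlapped. Its means were 1042 ± 43.8 and 1065 ± 104 (SD, n = 3), with a log2 fold change of 0.03 (SE 0.07, limma adjusted p = 0.85) and a two-sided exact permutation p of 0.9. The 95% confidence interval of the log2 fold change, -0.11 to 0.17, includes 0. An antisense gene, *Gm17276*, overlaps 6.03% of its exon bases.

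*Notch4* was not among the genes chosen but belongs to the wider pathway list, and it was the receptor with the largest log2 fold change. It was at 64.9, 62.5 and 56.9 normalized counts with vehicle and at 174.5, 169.0 and 154.8 with corticosterone. The lowest corticosterone library was far above the highest vehicle library. The mean rose from 61.4 ± 4.10 to 166 ± 10.2 (SD, n = 3; log2 fold change 1.43, SE 0.14, limma adjusted p = 9.8e-07). *Notch4* is known mainly from endothelial cells. Of 5 endothelial markers, *Pecam1* and *Tek* have a row, and their summed level was 0 to 10.5 normalized counts with vehicle and 1.07 to 12.8 with corticosterone. *Cdh5*, *Kdr* and *Erg* were not analysed here.

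Levels of different genes were compared per kilobase of exon, with all annotated exons of a gene merged. This length was 14232 bases for *Notch1* and 8089 for *Notch3*. By normalized counts *Notch1* was above *Notch3* in every library, so their order per kb and the receptor shares depend on the lengths used. With vehicle, *Notch2* had the highest level of the receptors, at 349 ± 15.7 normalized counts per kb (SD, n = 3). *Notch3* followed at 129 ± 5.41 and *Notch1* at 127 ± 11.4, and the library ranges of these neighbours overlapped. *Notch4* was at 7.62 ± 0.51 per kb. With corticosterone the order was the same, at 304 ± 4.12 for *Notch2*, 132 ± 12.8 for *Notch3*, 93.3 ± 5.29 for *Notch1* and 20.6 ± 1.26 for *Notch4*, and no neighbouring ranges overlapped. The summed level of the 4 receptors was 583.5 to 632.9 per kb with vehicle and 531.9 to 562.0 with corticosterone.

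As shares of that sum, *Notch1* made up 20.7% ± 1.35 with vehicle and 17.0% ± 0.62 with corticosterone (SD, n = 3). The share of *Notch2* was 57.0% ± 0.47 and 55.4% ± 1.39. *Notch3* had 21.1% ± 1.01 and 23.9% ± 1.78, and *Notch4* had 1.25% ± 0.13 and 3.75% ± 0.33. *Notch2* held the largest share in all 6 libraries, and every corticosterone library had less *Notch1* and more *Notch4* by share than any vehicle library.

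**Figure D2:**
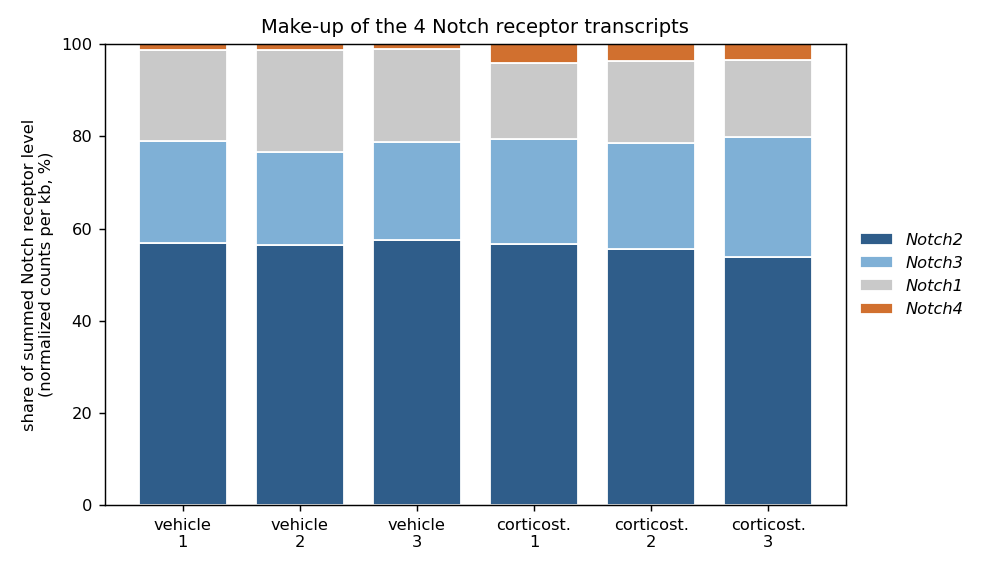
Share of each receptor (stacked bars, y axis in % from 0 to 100) in the summed normalized counts per kb of the 4 Notch receptors, in each of the 6 libraries. *Notch2* holds between 53.9% and 57.5% of every bar, and the *Notch4* segment is at most 1.38% with vehicle and at least 3.42% with corticosterone.

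Ratios within a library do not depend on the scaling between libraries. The log2 ratio of *Notch1* to *Notch2* was -1.06 ± 0.10 with vehicle and -1.31 ± 0.07 with corticosterone (SD, n = 3), a difference of -0.25. For *Notch3* to *Notch2* the difference was 0.22, from -1.85 ± 0.06 to -1.63 ± 0.14, and 0.14 without corticosterone replicate 3. Neither ratio overlapped between the groups. The log2 ratio of *Jag1* to *Jag2* was 4.32 ± 0.36 and 5.21 ± 0.41, a difference of 0.88, also without overlap. The groups were barely apart, with 4.73 in vehicle replicate 3 and 4.77 in corticosterone replicate 2, and *Jag2* had only 7 to 24 reads. For each of these 3 pairs the two-sided exact permutation p was 0.1, and 0.1 after adjustment over the 3, which is the smallest p that 3 against 3 libraries allow.

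*Jag1* (ENSMUSG00000027276, chromosome 2, 137081456 to 137116644, minus strand), a membrane-bound ligand, was the only gene of the 8 that rose. Its normalized counts were 253.0, 309.5 and 304.1 with vehicle and 338.3, 363.4 and 428.6 with corticosterone. The lowest corticosterone library was above the highest vehicle library, by less than the range within either group. The mean went from 289 ± 31.2 to 377 ± 46.6 (SD, n = 3), or +30.4% (log2 fold change 0.38, SE 0.10, 95% confidence interval 0.16 to 0.60, limma adjusted p = 0.015). The direction was the same in every fit with a library left out, with log2 fold changes of 0.29 to 0.46. The call was lost in 4 of those 6 fits, without vehicle replicate 1 (adjusted p = 0.11) or 3 (0.089) and without corticosterone replicate 2 (0.057) or 3 (0.14). No annotated gene overlaps its exons.

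*Jag2* (ENSMUSG00000002799, chromosome 12, 112907819 to 112929776, minus strand) and *Dll1* (ENSMUSG00000014773, chromosome 17, 15367354 to 15376872, minus strand) are ligands with few reads in these cells. *Jag2* was at 13.8, 18.5 and 11.4 normalized counts with vehicle and at 8.57, 13.3 and 8.96 with corticosterone, from 7 to 24 reads. The groups overlapped (log2 fold change -0.50, SE 0.45, 95% confidence interval -1.45 to 0.45, limma adjusted p = 0.56), and the log2 fold change was -0.31 without vehicle replicate 2 and -0.29 after thinning to the depth of the smallest library. *Dll1* was at 13.8, 10.8 and 24.8 with vehicle and at 3.21, 12.1 and 19.2 with corticosterone, from 3 to 24 reads. It varied more within each group than between the group means (log2 fold change -0.76, SE 0.60, 95% confidence interval -2.04 to 0.52, limma adjusted p = 0.49). Its log2 fold change was -0.02 without corticosterone replicate 1, -1.29 without corticosterone replicate 3 and -0.42 without vehicle replicate 3. An antisense gene, *A930024N18Rik*, overlaps 20.5% of the exon bases of *Dll1*. The corticosterone to vehicle ratio of summed reads, corrected for library scaling, was 0.692 for *Jag2* (exact 95% interval 0.418 to 1.12, counting error only). For *Dll1* it was 0.703 (0.432 to 1.12). Both intervals include 1.

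Per kilobase, *Jag1* had the highest level of the 3 chosen ligands, at 49.6 ± 5.35 normalized counts per kb with vehicle and 64.7 ± 7.99 with corticosterone (SD, n = 3). *Dll1* was at 3.90 ± 1.75 and 2.73 ± 1.90 and *Jag2* at 2.09 ± 0.52 and 1.47 ± 0.37, and the ranges of these neighbours overlapped in both treatments. In vehicle libraries *Hes1* lay above *Jag1* per kb, and in corticosterone libraries *Jag1* lay above *Hes1*, without overlap in either case. With vehicle they were barely apart, as the lowest *Hes1* value was 53.8 per kb and the highest *Jag1* value 53.1. By normalized counts *Jag1* was above *Hes1* in every library, so their order per kb depends on the lengths used, 5827 and 2037 bases.

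*Hes1* (ENSMUSG00000022528, chromosome 16, 30064384 to 30067796, plus strand), a repressor and a classic target of Notch, was at 141.1, 129.7 and 109.6 normalized counts with vehicle. With corticosterone it was at 87.8, 98.3 and 85.7. Each corticosterone library was below the lowest vehicle library. The mean fell from 127 ± 15.9 to 90.6 ± 6.75 (SD, n = 3), which is -28.5% (log2 fold change -0.48, SE 0.14, 95% confidence interval -0.78 to -0.18, limma adjusted p = 0.028), from 67 to 174 reads. With any single library left out the log2 fold change was -0.58 to -0.40, and the call was lost in 4 of 6 fits: without vehicle replicate 1 (adjusted p = 0.13) or 2 (0.090) and without corticosterone replicate 1 (0.094) or 3 (0.11). DESeq2 on the recovered reads gave an adjusted p of 0.064, and edgeR gave 0.018.

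*Heyl* (ENSMUSG00000032744, chromosome 4, 123233556 to 123249875, plus strand), a Hey family repressor, was close to the floor. It was at 8.11, 9.26 and 11.4 normalized counts with vehicle, from 10, 12 and 11 reads. With corticosterone it was at 2.14, 3.31 and 5.12, from 2, 3 and 4 reads. All corticosterone libraries were below all vehicle libraries, yet limma's adjusted p was 0.15 (log2 fold change -1.49, SE 0.65, 95% confidence interval -2.86 to -0.11), so the gene is not counted as lower. The ratio of summed reads, corrected for library scaling, was 0.364 (exact 95% interval 0.153 to 0.777, counting error only). Per kb *Heyl* was the lowest of the 8 genes in both treatments, at 1.87 ± 0.32 and 0.69 ± 0.29 (SD, n = 3), and with vehicle its range overlapped that of *Jag2*.

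The genes whose pattern over the 6 libraries was most like that of *Hes1* were *Arhgap39*, *Prkar2b* and *Hdac11*. *Hes1* was taken because it had the largest absolute log2 fold change among the 8 genes with a mean of at least 100, and likeness was the root-mean-square difference of log2 values centred on each gene's mean. That difference was 0.058 for *Arhgap39*, 0.069 for *Prkar2b* and 0.069 for *Hdac11*, against a median of 0.283 over 10558 genes. Their log2 fold changes were -0.39, -0.39 and -0.41. These are descriptions over the same 6 libraries, without a test.

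The wider pathway was described with a list of 56 other genes, of which 52 have a row. In it 12 genes rose, 8 fell and 32 did not pass, with a median log2 fold change of -0.02, against 8.49% higher and 8.20% lower over all genes. When only the 13880 genes with a mean of at least 10 were fitted, 2190 were higher and 2125 lower. Of the listed genes with such a mean, 13 were higher and 8 lower in that fit, and those with a lower mean were left out of it. The groups did not overlap for 26 of the 52, where 29.6% of all genes did not overlap. *Notch4*, *Dlk2* and *Dtx4* also passed the stricter rule on size, which 2.78% of all genes met, and 4 genes were at or under 3 reads in every library. With each library left out in turn, 11 of the 20 that passed did so in every fit, namely *Notch4*, *Dlk2*, *Adam17*, *Furin*, *Aph1a*, *Rbpj*, *Maml3*, *Tle2*, *Tle5*, *Dtx4* and *Hes6*. Without limma's variance trend 5 rose (*Notch4*, *Dlk2*, *Adam17*, *Maml3* and *Hes6*) and 3 fell (*Rbpj*, *Tle4* and *Dtx4*). The other 12 calls ended, among them those of *Furin* (adjusted p = 0.155), *Aph1a* (0.063), *Tle2* (0.098) and *Tle5* (0.105).

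Among the other ligands, 1 of 3 passed. *Dlk2*, a membrane protein related to Delta that lacks the domain by which the canonical ligands bind, rose from 150 ± 21.7 to 365 ± 49.8 normalized counts (SD, n = 3; log2 fold change 1.28, SE 0.12, limma adjusted p = 1.0e-06). *Dll3* and *Dll4* had at most 4 reads in any library. Of 5 glycosyltransferases that modify the receptor, only *Rfng* passed (log2 fold change 0.18, adjusted p = 0.037), and of 4 ubiquitin ligases that act on the ligands only *Neurl1b* did (log2 fold change -0.44, adjusted p = 0.031). Both were lost in 5 of 6 fits with a library left out, with adjusted p up to 0.13 and 0.14.

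Of the proteases that cut the receptor, *Adam17* rose from 1425 ± 80.5 to 2013 ± 50.3 normalized counts (SD, n = 3; log2 fold change 0.50, SE 0.05, limma adjusted p = 2.5e-06). *Adam10*, the sheddase best known for ligand-induced cleavage, had a log2 fold change of -0.07 (SE 0.04, adjusted p = 0.39). *Furin*, which cuts the receptor during its maturation, rose by 0.20 (adjusted p = 0.0037). In γ-secretase, 5 of 7 genes did not pass. Its alternative scaffold subunits went in opposite directions, as *Aph1a* rose by 0.26 (adjusted p = 2.4e-04) and *Aph1b* fell by 0.38 (adjusted p = 0.0063, and 0.055 without vehicle replicate 3). A gene on the opposite strand overlaps 12.9% of the exon bases of *Aph1a*, and no gene overlaps those of *Aph1b*.

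In the nuclear complex, *Rbpj*, the DNA-binding partner of the receptor's intracellular domain, fell from 3548 ± 127 to 2694 ± 80.8 normalized counts (SD, n = 3; log2 fold change -0.40, SE 0.04, limma adjusted p = 5.9e-06). The Mastermind coactivator genes *Maml3* (log2 fold change 0.49, adjusted p = 2.1e-05) and *Maml2* (0.32, adjusted p = 0.0020) rose, while *Maml1* was at 0.04 (adjusted p = 0.70). *Maml2* was lost without vehicle replicate 3 (adjusted p = 0.055) or corticosterone replicate 3 (0.052). Of 12 genes listed as corepressors or related proteins, 2 were higher and 3 lower. *Spen* (log2 fold change 0.27, adjusted p = 0.0076) and *Tle1* (0.26, adjusted p = 0.012) rose, and *Tle2* (-0.38, adjusted p = 1.4e-04), *Tle5* (-0.26, adjusted p = 2.5e-04) and *Tle4* (-0.50, adjusted p = 0.038) fell. Of these, *Spen* was lost without vehicle replicate 1 or corticosterone replicate 2 or 3 (adjusted p up to 0.075), *Tle1* without vehicle replicate 3 or corticosterone replicate 3 (up to 0.054), and *Tle4* in 5 of 6 fits (up to 0.11).

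Among 9 genes for inhibitors and turnover of the receptor, *Dtx4* fell from 1246 ± 177 to 506 ± 63.0 normalized counts (SD, n = 3; log2 fold change -1.30, SE 0.10, limma adjusted p = 4.9e-08). *Dtx4* encodes a Deltex ubiquitin ligase. Of its relatives, *Dtx3* rose (log2 fold change 0.26, adjusted p = 0.012) and *Dtx3l* fell (-0.31, adjusted p = 0.017), each lost in 5 of 6 fits with a library left out (adjusted p up to 0.19 and 0.11). *Numb* and *Numbl*, the best known Notch inhibitors, had log2 fold changes of -0.02 and -0.02. Of 4 further Hes or Notch-induced genes, *Hes6*, which is known to oppose Hes1, rose from 673 ± 43.4 to 1319 ± 103 normalized counts (SD, n = 3; log2 fold change 0.97, SE 0.07, limma adjusted p = 2.1e-08). The feedback inhibitor *Nrarp* had 0 to 5 reads.

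**Figure D3:**
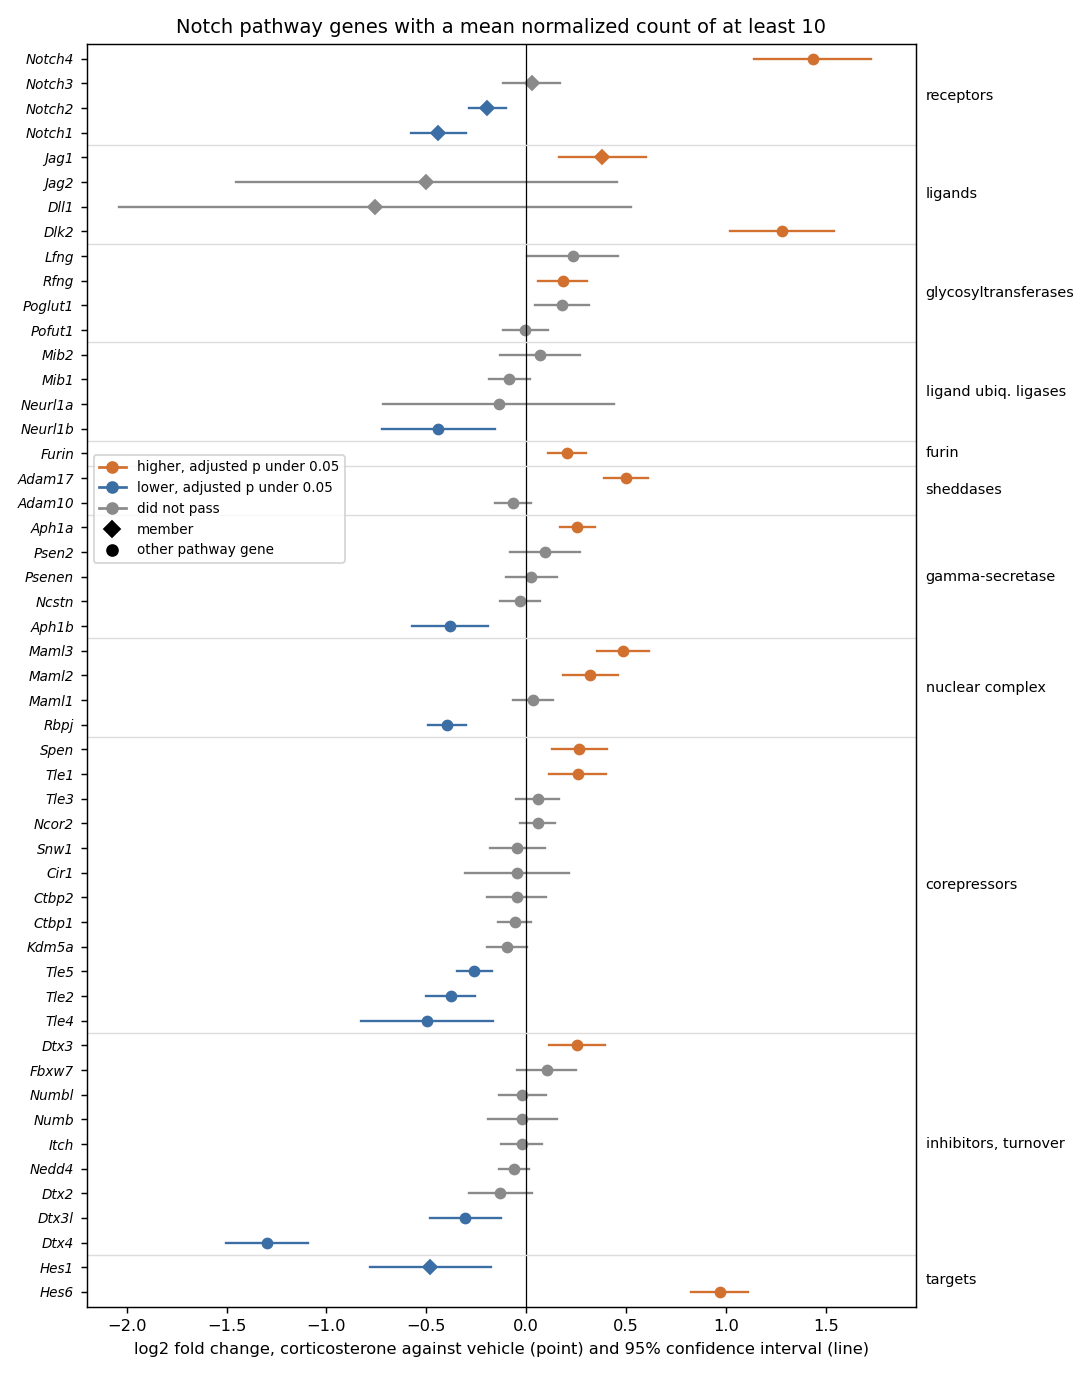
Log2 fold change with its 95% confidence interval (x axis, 0 marked by the vertical line) for 51 Notch genes with a mean normalized count of at least 10, grouped by role. Diamonds mark 7 of the 8 genes described first and circles 44 other pathway genes, and colour marks 13 higher, 11 lower and 27 that did not pass. *Notch4* and *Dlk2* lie farthest to the right and *Dtx4* farthest to the left among those that passed.

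Markers of other cell types were read beside these results. Of 4 smooth muscle markers, *Cnn1* (log2 fold change 1.04) and *Smtn* (0.57) were higher and *Des* (-0.01) did not pass. The list's summed level, most of it from *Smtn*, was 2412 to 2609 normalized counts with vehicle and 3580 to 3897 with corticosterone. The defining marker *Myh11* was at 2.56 to 6.42 in all libraries. Of 4 adipocyte markers, *Fabp4* was higher (log2 fold change 3.14), *Plin1* was at 0 in 5 of 6 libraries, and the sum of both was 7.72 to 21.1 and 108 to 133. The chondrocyte gene *Col2a1* was lower (log2 fold change -0.80), with 2 of 4 markers having a row and a sum of 1132 to 1447 and 692 to 839. No macrophage marker passed, and 2 of 4 with a row summed to 46.5 to 62.4 and 43.5 to 47.5. The part of these changes, of the lower osteoblast markers or of the difference in depth in the Notch values was not tested, apart from thinning all libraries to the depth of the smallest, after which 1 of the 8 Notch genes was higher and 3 were lower.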

How the data were processed

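MC3T3-E1 RNA was sequenced as 6 libraries after library preparation with the NEBNext Ultra kit. The submitters' processing notes name mm10 (GRCm38). The aligner, the counting program and its use of strand are not given in the sources used here. In the table the authors deposited, values named FPKM are a signal, read counts divided by 1 size factor per library. In every library 100% of the values were whole multiples of a single step (tolerance 0.01), so whole reads were recovered. The depth was 16020401 to 25638645 reads per library.

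Groups and replicates came from the sample labels. The labels and series text call the replicates biological but do not name separate cultures, so p-values measure the spread between these libraries. The main test was limma 3.58.1 (lmFit, eBayes with a variance trend; R 4.3.3) on log2 values after adding 0.1, with a minimum mean of 0.1 that removed none of 24016 genes, and with Benjamini-Hochberg adjustment. At low counts, fold changes vary with the 0.1 added and can differ from the ratio of group means. The design assumed FPKM and was kept. For single values an exact two-sided permutation test was used (Python 3.11.15, scipy 1.17.1), whose smallest p is 0.1 here. The alternatives were other pseudocounts, filters, scalings and variance models, the replicate block, thinning, each library left out, and edgeR 4.0.16 and DESeq2 1.42.0 on the recovered reads. The fits were also run on simulated reads with the same spread beyond counting error in every gene, which cannot decide between the variance models.

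The genes named are the 10 Notch genes, the listed pathway genes that passed or illustrate a role, Tsc22d3 and Fkbp5 as treatment checks, cell type markers, and the 3 genes most like Hes1 in pattern. The members, lists and rules were chosen with earlier results of these data known. Pathway genes that did not pass and are named were chosen after their values were seen. Lengths and positions came from GENCODE M21 and promoters from RefSeq. A single-gene result is not reported here, while the fits and counts include it.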

Additional observations from a re-analysis of the deposited data

How the results depend on the processing

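The log2 fold changes of the 8 Notch genes kept their direction under every alternative run, except that of Notch3, which was -0.0133 with libraries scaled to the same total and -0.048 to 0.0867 with each library left out. Without limma's variance trend, 873 genes were higher and 760 lower, none of the Notch genes passed in either direction (0 higher, 0 lower), and of the other pathway genes 5 were higher and 3 lower; the cause was not tested. With a mean of at least 10 as well, an alternative chosen after seeing the data, 0 Notch genes were higher, as Jag1 had an adjusted p of 0.078 (unadjusted under 0.05), and 3 were lower. With each library left out in turn, 1148 to 1611 genes were lower, 0 to 1 Notch genes were higher, and the other pathway genes numbered 7 to 12 higher and 5 to 6 lower, where fewer samples were fitted. The Hes1 call was also lost with DESeq2 (adjusted p = 0.064). Scaling to the same total moved the share of calls that were higher from 50.9% to 40.3% (1703 higher and 2521 lower) and the median log2 fold change of all genes from -0.01 to -0.05, with 1 Notch gene higher and 3 lower as before. With the replicate block, 1 Notch gene was higher and 3 lower, and of all genes 2012 were higher and 1893 lower. Libraries of the same number did not deviate together (correlations -0.044, 0.0014 and 0.023 over 13880 genes), which gave no sign of pairing by number. Such correlations cannot exclude a small effect shared by 2 libraries. The block ended the call of Tle4 (adjusted p = 0.060) and no other call described. DESeq2 ended those of Rfng (0.066), Neurl1b (0.069) and Tle4 (0.11). Scaling to the same total ended that of Rfng (0.11), quantile normalization that of Tle4 (0.067), and thinning those of Neurl1b (0.059) and Tle4 (0.11). Alternatives were tallied for the 8 Notch genes, the 20 other pathway genes that passed, Tsc22d3 and Fkbp5. Among these, 609 values kept their direction and side of the threshold, 73 no longer passed and 3, all of Notch3, changed sign. Pathway genes that did not pass in the main fit are outside this tally, so calls gained among them are not counted. Ratios with Hey1 were planned and not run. Depth limits Jag2, Dll1 and Heyl, which had 2 to 24 reads per library.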
